A study of Mus musculus with 4 samples.

Results

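The genes described here are the cytochromes P450 of families 1 to 4 in organoids of the mouse small intestine. Members were taken by name: every gene identifier of the deposited tables whose mouse symbol is Cyp, a family number from 1 to 4, a subfamily letter and a final number, with pseudogenes left out. This gave 76 genes, all annotated as protein coding, of 55416 identifiers. Family 1 holds 3 of them, family 2 holds 49, family 3 holds 7 and family 4 holds 17. A further 5 protein-coding P450s of these families have symbols that end in a letter, were left out by the rule, and had at most 6 counts each over all libraries.

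Cytochromes P450 are heme enzymes that insert an oxygen atom into small lipophilic molecules. Those of families 1 to 3 are best known for the oxidation of drugs, dietary compounds and pollutants in liver and intestine, and many members of families 2 and 4 also oxidise arachidonic acid and other fatty acids. Most of them sit in the membrane of the endoplasmic reticulum and take electrons from P450 oxidoreductase, with cytochrome b5 as a second donor. Their genes are switched on by ligand-activated receptors, chiefly AHR for family 1, CAR and PXR for subfamilies Cyp2b, Cyp2c and Cyp3a, and PPARA for subfamily Cyp4a. In the gut they are a feature of mature absorptive cells, the enterocytes of the villus.

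RNA selected by its poly-A tail was sequenced from 4 libraries, all from C57BL/6 mice. The adult group had 2 libraries of organoids started from intestinal epithelium of mice aged 4 to 8 weeks, and the fetal group had 2 libraries of organoids started from epithelium of E15.5 embryos. Both kinds were grown in the same commercial organoid medium (IntestiCult), and the labels name no other treatment or allele. The labels do not say whether the libraries of a group came from separate animals or cultures, so the p-values given here speak only of library-to-library spread, whose source could be technical.

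The libraries held between 10862147 and 13061585 expected counts, which are read counts per gene with reads that fit several genes shared out by estimate. Mitochondrial transcripts took 17.6% and 17.5% of the counts in adult libraries and 6.98% and 7.82% in fetal ones. All 12 enterocyte markers examined were called lower in fetal organoids, though Vil1, singled out after its values were seen, had a log2 fold change of -0.15 that turned to 0.09 with library totals and 0.22 on log2(TPM + 1). Their summed level in counts-per-million units (CPM) was 2464 and 2468 in adult and 455 and 460 in fetal libraries. Vil1 alone made up 387 and 398 CPM of the adult sums and 350 and 356 CPM of the fetal ones. The median log2 fold change of the 12 markers was -4.55. Most markers of 4 other epithelial types were called lower as well: 5 of 5 enteroendocrine, 4 of 5 Paneth, 3 of 5 goblet and 3 of 4 crypt stem. The median log2 fold changes of these lists were -4.44, -2.93, -1.56 and -1.49. Among all genes tested, 32.7% were called lower. Some markers, such as Treh and Tph1, had too few fetal counts to be tested except as genes high in adult. Lgr5 of the crypt stem list, singled out after its values were seen, had a log2 fold change of -0.30. Its TPM were 80.8 and 77.6 in adult and 86.3 and 88.15 in fetal libraries. Ascl2 of that list was not called. Mmp7 of the Paneth list and Clca1 of the goblet list were called higher. Of the tuft markers 4 were tested, with 2 lower, 1 higher and 1 not called. The 5 tuft markers summed to 4.99 and 4.81 CPM in adult and 10.5 and 11.7 CPM in fetal libraries. The enterocyte marker of highest CPM, the brush-border disaccharidase Sis, stood at 699 and 695 CPM in adult and 6.14 and 10.3 CPM in fetal libraries. Markers of hepatocytes, the other main source of these P450s, summed to 34.3 and 33.0 CPM in adult and 1.03 and 1.39 CPM in fetal libraries, in adult mostly Ttr, with Tat and Fga at 0 in every library. Here and below CPM are scaled by the TMM method and serve to compare libraries within a gene, while levels of different genes are compared in TPM, the deposited transcript measure that corrects for gene length.

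In adult organoids P450s of families 1 to 4 together stood at 2572 and 2554 CPM. In fetal organoids the same sum was 201 and 215 CPM, a level 12.3-fold lower. On the TPM scale the sums were 1574 and 1536 in adult and 130 and 135 in fetal libraries, a ratio of 11.7. The families differed in this ratio: family 2 was 21.0-fold lower in fetal organoids, family 3 was 10.8-fold lower, family 4 was 4.85-fold lower, and family 1 was 2.25-fold higher. These ratios of summed CPM carry no test. In these bulk samples fewer cells of a type and less RNA per cell cannot be told apart. Markers of enterocytes, and most of those of enteroendocrine, Paneth, goblet and crypt stem cells, were called lower in the same fetal libraries. Vil1 and Lgr5 were lower in CPM but not in TPM. The part of these cell types in the P450 result was not tested.

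**Figure D1:**
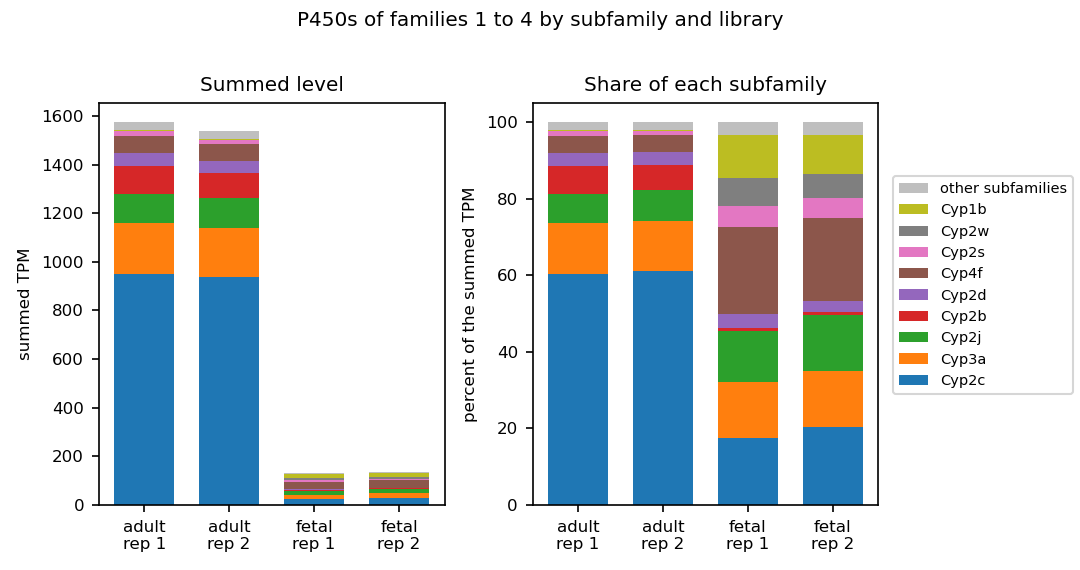
Left, summed TPM of the 76 P450s in each library, stacked by subfamily; right, the percent of that sum taken by each subfamily. Adult sums are 1574 and 1536 TPM and fetal sums 130 and 135 TPM, and the Cyp2c share is 60.4% and 61.2% in adult and 17.5% and 20.3% in fetal libraries.

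The make-up of the remaining P450 RNA differed as well. Subfamily Cyp2c took 60.4% and 61.2% of the summed TPM in adult libraries and 17.5% and 20.3% in fetal ones. Subfamily Cyp4f took 4.68% and 4.33% of the sum in adult and 22.7% and 21.7% in fetal libraries, although its own summed CPM were lower in fetal organoids, 103 and 99.7 against 30.1 and 29.2. Family 1 took 0.527% and 0.598% in adult and 11.9% and 11.7% in fetal libraries. Family 3 took a similar share in both groups, 13.3% and 13.1% in adult and 14.6% and 14.7% in fetal organoids, but with different genes behind it, as described below. Without subfamily Cyp2c, the summed CPM of the other members was still 6.55-fold lower in fetal organoids.

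Of the 76 genes, 22 had 0 counts in every library and another 22 had too few counts to test, at most 8 in any library. The remaining 32 genes passed the low-count filter. They are also all the members with a mean of at least 1 CPM in a group. In edgeR's quasi-likelihood test with Benjamini-Hochberg adjustment over 14271 genes, 29 of these 32 were lower and 3 were higher in fetal organoids at an adjusted p under 0.05. Among all genes tested, 32.7% were called lower and 33.9% higher. A change of at least 4-fold was called for 24 members downwards and 2 upwards, beside 5.72% and 8.23% of all genes. The 2 adult values and the 2 fetal values did not overlap for any of the 32, as for 82.7% of all genes tested. An SE given below is the absolute log2 fold change divided by the square root of F from the edgeR test. It is not the standard error of the fitted coefficient. Where counts are few it can lie below counting error.

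The filter bears on how these counts can be read. Of the 32 genes, 14 reached the filter level of 0.812 CPM of the library total in the adult group alone, so they could enter the test only as genes that are high in adult. The other 18 reached it in both groups, and 15 of them were lower and 3 higher. The median log2 fold change of the tested members was -5.23, or -4.38 with the 5 members that had 0 counts in both fetal libraries set at their bound, beside 0.01 for all genes tested. A bound here takes 3 counts per library as the most that a count of 0 allows, which is 0.209 and 0.228 CPM in the fetal libraries and covers counting error only.

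**Figure D2:**
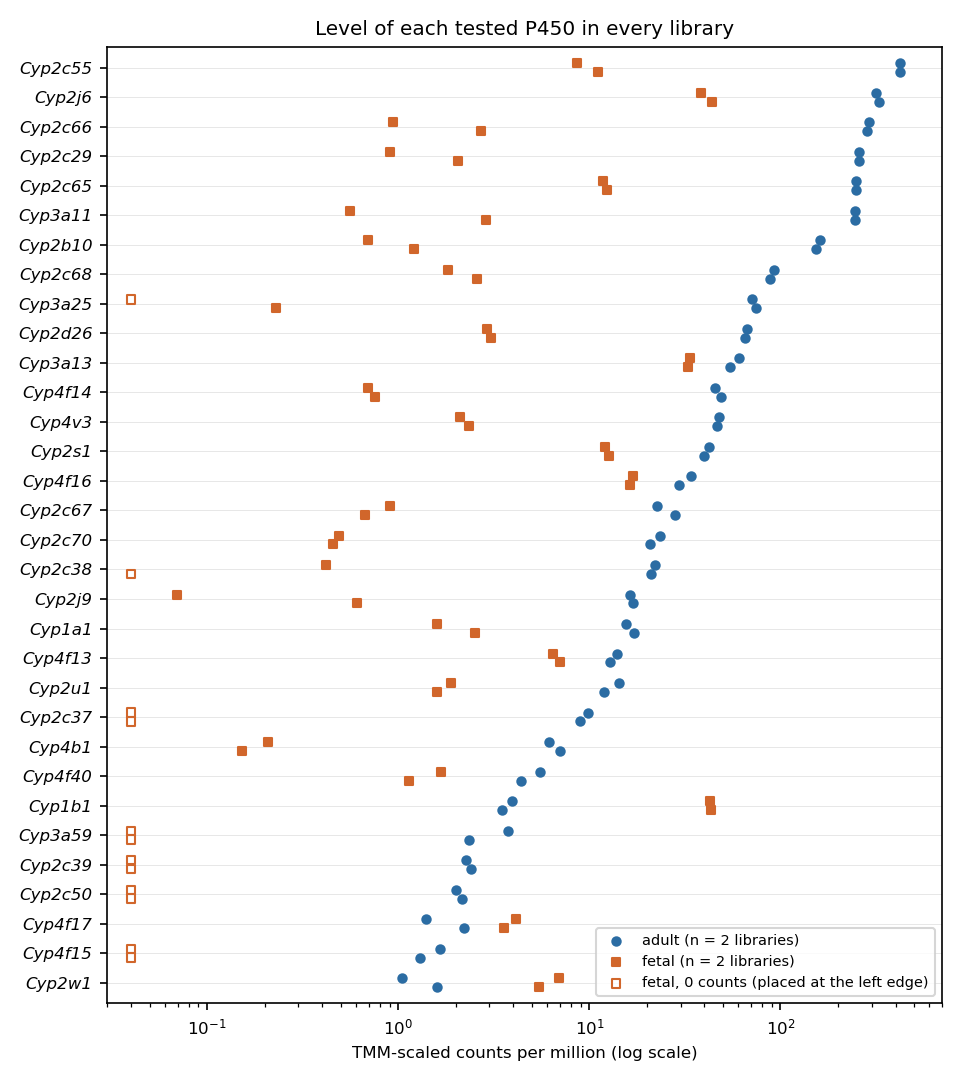
TMM-scaled CPM (log axis) of the 32 tested P450s in each of the 4 libraries, ordered by adult level; open squares at the left edge are fetal libraries with 0 counts. Adult circles lie to the right of fetal squares for all genes except Cyp1b1, Cyp2w1 and Cyp4f17.

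Family 1 holds the enzymes that oxidise polycyclic aromatic hydrocarbons and are induced through AHR, and its tested members went in opposite directions. Cyp1b1, which also acts on estradiol and retinol and is widely expressed outside the liver, had 3.94 and 3.51 CPM in adult and 42.8 and 43.2 CPM in fetal libraries. Both fetal values lay far above both adult values, a rise of 3.52 ± 0.11 on the log2 scale (SE, n = 2 libraries per group; edgeR adjusted p = 2.50e-11) or 11.6-fold. Cyp1a1, the classical AHR-induced enzyme of gut and liver, had 15.485 and 17.1 CPM in adult and 1.60 and 2.51 CPM in fetal libraries. It fell by 2.99 ± 0.20 on the log2 scale (SE; edgeR adjusted p = 4.87e-08), or 7.93-fold, with no overlap between groups. Cyp1a2 was too low to test. In TPM, Cyp1b1 ranked 31 of the 76 in adult and 4 in fetal organoids.

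Some markers of other cells moved with Cyp1b1. Of 8 mesenchyme markers 7 were tested and 6 were higher in fetal organoids, beside 33.9% of all genes. Col1a1, Col1a2, Col3a1, Dcn and Pdgfra had at most 4 counts in any adult library. They reached the filter level in the fetal group alone, so their direction was set by the filter. The 8 markers summed to 5.07 and 5.81 CPM in adult and 67.9 and 66.3 CPM in fetal libraries. Col3a1, a fibroblast collagen, had 0 counts in both adult libraries and 25.5 and 26.4 CPM in fetal ones, and Col1a2 and Dcn also had 0 counts in adult. The 6 leukocyte markers summed to 2.53 and 2.97 CPM in adult and 11.0 CPM in each fetal library. Only 2 of them, Cd68 and Lyz2, had enough counts to test, and both were higher. Lyz2, with 5 and 3 adult counts, reached the filter level in the fetal group alone. The general leukocyte marker Ptprc had 0 counts in both fetal libraries, and Cd3e had 0 in every library. The 4 endothelial markers summed to at most 0.905 CPM in any library. Whether cells of these types had a part in the Cyp1b1 result was not tested.

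The promoter windows of these 2 genes are shown because their levels moved in opposite directions while both are known AHR targets. Each window runs from 250 bases before the annotated start to 50 bases after it (RefSeq, build GRCm38.p6), 5′ to 3′ on the gene's strand, with capitals marking GCGTG, the core of the AHR-ARNT element, or its reverse complement. The Cyp1a1 window lies on the plus strand at chr9:57697363-57697662 and the Cyp1b1 window on the minus strand at chr17:79715012-79715311.
Cyp1a1: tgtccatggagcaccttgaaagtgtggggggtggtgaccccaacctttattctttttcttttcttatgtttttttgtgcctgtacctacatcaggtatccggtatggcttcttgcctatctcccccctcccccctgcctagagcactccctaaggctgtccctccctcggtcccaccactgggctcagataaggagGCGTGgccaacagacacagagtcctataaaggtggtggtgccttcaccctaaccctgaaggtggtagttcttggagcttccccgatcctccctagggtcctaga
Cyp1b1: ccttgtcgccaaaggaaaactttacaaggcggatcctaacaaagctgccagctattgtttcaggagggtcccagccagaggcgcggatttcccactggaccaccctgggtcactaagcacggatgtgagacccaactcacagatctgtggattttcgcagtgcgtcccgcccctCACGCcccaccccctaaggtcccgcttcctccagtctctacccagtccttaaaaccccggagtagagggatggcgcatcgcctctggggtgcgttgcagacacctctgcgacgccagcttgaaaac
Each window held 1 match, 54 bases before the start in Cyp1a1 and 76 bases before it in Cyp1b1, the latter on the opposite strand. Windows were found for 63 of the 76 members and 30 of the 32 tested ones. Some genes have several windows: the 30 tested members had 36. GCGTG on either strand was present in 9 of these 36 and in 10639 of all 32851 windows (32.4%). A match describes the letters in the window and is not a bound site.

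Subfamily Cyp2c, whose members epoxidise or hydroxylate arachidonic acid and oxidise many drugs, held the P450s of highest level in adult organoids. Of its 15 members 11 were tested, and all 11 were lower in fetal organoids by at least 4-fold, beside 5.72% of all genes. Of these, 6 reached the filter level in adult alone, so their direction was set by the filter, and 5 reached it in both groups: Cyp2c29, Cyp2c55, Cyp2c65, Cyp2c66 and Cyp2c68. The summed level was 1395 and 1385 CPM in adult and 25.9 and 32.0 CPM in fetal libraries, a ratio of 48.0. All 11 lie in a single run of neighbouring genes from Cyp2c55 to Cyp2c70 that holds 14 of the members, with no gap of more than 5 other genes between neighbours.

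Cyp2c55, an arachidonic acid hydroxylase of the gut, had the highest TPM of any member in adult organoids, 266 and 265, and 7.13 and 8.98 TPM in fetal ones. Its CPM were 423 and 424 in adult and 8.58 and 11.1 in fetal libraries. The log2 fold change was -5.43 ± 0.06 (SE, n = 2 per group; edgeR adjusted p = 4.76e-15), which is 43.0-fold lower. Its protein is 71.2% identical to that of its closest relative, and its deposited counts were whole in every library.

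Most other Cyp2c genes have a relative whose protein is over 80% identical, and the split of reads between such genes is an estimate. Cyp2c29, a hepatic and intestinal epoxygenase inducible through CAR, had 257 and 256 CPM in adult and 0.907 and 2.05 CPM in fetal libraries, 174-fold lower. Cyp2c38 had 22.0 and 21.0 CPM in adult, 0.418 CPM in fetal replicate 1 and 0 counts in fetal replicate 2. Cyp2c39, the closest relative of Cyp2c38 at 92.0% identity, had 2.26 and 2.40 CPM in adult and 0 counts in both fetal libraries, at least 10.6-fold lower. The sum of these 3 genes, 281 and 280 CPM in adult and 1.33 and 2.05 CPM in fetal libraries, was 166-fold lower. Cyp2c29 made up most of that sum.

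Cyp2c65 and Cyp2c66 are an intestinal pair with 93.7% identical proteins. Cyp2c66 had 289 and 285 CPM in adult and 0.944 and 2.72 CPM in fetal libraries, 157-fold lower, and Cyp2c65 had 250 and 247 CPM in adult and 11.7 and 12.4 CPM in fetal libraries, 20.6-fold lower. Cyp2c66 was thus the higher of the pair in adult libraries on the TPM scale (217 and 212 against 163 and 160) and the lower in fetal ones (0.91 and 2.58 against 10.1 and 10.4). The deposited counts of both genes carried fractions in all 4 libraries, and in all 4 the sum of the pair was whole to within 0.015, as it is when reads are divided between these 2 genes alone. The pair summed to 6162 and 5307 counts in adult and 182 and 199 in fetal libraries, 38.5-fold lower in CPM.

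Cyp2c67 and Cyp2c68 are another close pair, with proteins 95.1% identical. Cyp2c68 had 92.1 and 88.1 CPM in adult and 1.81 and 2.60 CPM in fetal libraries, 40.9-fold lower. Cyp2c67 had 22.5 and 28.1 CPM in adult and 0.906 and 0.672 CPM in fetal libraries, 32.1-fold lower. Among the 3 libraries where their counts carried fractions beyond 0.015, the sum of the pair was whole in 1. With the nearly silent Cyp2c69 added it was whole in all 3, at 1315 and 1163 counts in adult and 43 in fetal replicate 2. The 3 genes together were 38.7-fold lower in CPM, close to either gene alone.

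Cyp2c70, which in mice makes muricholic acids from chenodeoxycholic acid, stands apart in sequence at 60.8% identity to its closest relative and had whole counts in every library. It had 23.4 and 20.6 CPM in adult and 0.488 and 0.456 CPM in fetal libraries, a log2 fold change of -5.52 ± 0.22 (SE, n = 2 per group; edgeR adjusted p = 3.55e-10). Cyp2c37 and Cyp2c50, close relatives at 94.5% identity, had no counts in either fetal library. Cyp2c37 had 9.89 and 8.92 CPM in adult, at least 43.0-fold lower in fetal, and Cyp2c50 had 2.00 and 2.16 CPM in adult, at least 9.51-fold lower.

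Promoter stretches of 5 tested members are shown because they hold the letters CAAAGTCCA, a site form of HNF4A, a factor of mature intestinal and hepatic epithelium. Each line gives 40 bases on the gene's strand with the match in capitals (RefSeq windows, build GRCm38.p6). The stretches lie at chr19:39060874-39060913 on the plus strand for Cyp2c65, and on the minus strand at chr19:39649144-39649183 for Cyp2c67, chr19:39741155-39741194 for Cyp2c68, chr19:40187327-40187366 for Cyp2c70 and chr5:145879940-145879979 for Cyp3a11.
Cyp2c65: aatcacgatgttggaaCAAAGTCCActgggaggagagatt
Cyp2c67: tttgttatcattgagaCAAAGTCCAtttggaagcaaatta
Cyp2c68: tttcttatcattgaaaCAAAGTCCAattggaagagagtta
Cyp2c70: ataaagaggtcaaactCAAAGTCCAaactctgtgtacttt
Cyp3a11: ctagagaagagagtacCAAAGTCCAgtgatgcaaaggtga
The matches begin 116, 125, 77, 64 and 109 bases before the annotated start, in the order listed, and all read in the direction of the gene. The letters, searched on both strands, were present in 5 of the 36 windows of tested members and in 156 of all 32851 windows (0.475%). Cyp2c67 and Cyp2c68 are near copies, so these 5 are not independent, and no test was made. GTTAATNNT, a half-site form of HNF1, was present in 1 of the 36 and in 2.57% of all windows, and TTTATNG, a form of the CDX2 site, in 8 of the 36 and in 10.9% of all windows. All 5 genes were lower in fetal organoids, as were most tested members without the letters, and nothing about the factor follows from the match.

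Outside Cyp2c, the family 2 member most reduced was Cyp2b10, the standard target gene of CAR. It had 161 and 153 CPM in adult and 0.697 and 1.22 CPM in fetal libraries. This is a log2 fold change of -7.36 ± 0.12 (SE, n = 2 per group; edgeR adjusted p = 6.41e-14), or 164-fold lower. Its closest relative, Cyp2b13, is 83.8% identical, but the counts of Cyp2b10 were whole in all 4 libraries. The other 4 members of Cyp2b were not tested.

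Cyp2j6, an intestinal arachidonic acid epoxygenase, fell less and so became the P450 of highest level in fetal organoids. Its TPM were 108 and 112 in adult, rank 6 of the members, and 17.3 and 19.3 in fetal, rank 1, with values that overlapped those of Cyp3a13, the next in order. In CPM it went from 315 and 329 to 38.2 and 43.8, 7.86-fold lower with a log2 fold change of -2.98 ± 0.05 (SE, n = 2 per group; edgeR adjusted p = 1.83e-13). Cyp2j9, its closest relative at 78.1% identity, had 16.3 and 16.8 CPM in adult and 0.0697 and 0.608 CPM in fetal libraries, the latter resting on 1 and 8 counts. The remaining 6 members of Cyp2j were not tested.

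Cyp2d26 had 66.4 and 64.8 CPM in adult and 2.93 and 3.04 CPM in fetal libraries, 22.0-fold lower, and was the only member of the 8-gene subfamily Cyp2d with enough counts to test. Cyp2s1, an epithelial enzyme of skin, airway and gut, had 42.3 and 39.9 CPM in adult and 12.1 and 12.6 CPM in fetal libraries, 3.33-fold lower. Cyp2u1, a fatty acid hydroxylase, had 14.2 and 11.9 CPM in adult and 1.88 and 1.60 CPM in fetal libraries, 7.53-fold lower. None of these 3 has a relative over 80% identical, and in each the groups were far apart beside the spread within them. Their counts still carried fractions, in 3 libraries for Cyp2u1 and in 1 library each for Cyp2d26 and Cyp2s1. With which genes these reads were shared was not tested.

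Cyp2w1 was the single family 2 member that rose. It is known for its presence in fetal colon and in colorectal tumours and its near absence from adult tissue. It had 1.05 and 1.60 CPM in adult and 6.90 and 5.47 CPM in fetal libraries, from 12 and 16 counts against 99 and 72. The rise was 2.23 ± 0.29 on the log2 scale (SE, n = 2 per group; edgeR adjusted p = 2.27e-05), or 4.66-fold. Its closest relative is 39.4% identical, and its counts were whole. In TPM it ranked 29 in adult and 7 in fetal organoids, at 1.20 and 1.60 against 9.52 and 8.29.

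In family 3 all 4 tested members of 7 were lower, beside 32.7% of all genes. Of the 4, 3 reached the filter level in adult alone and Cyp3a13 reached it in both groups. Cyp3a11, the mouse gene most often compared with human CYP3A4 and the usual readout of PXR, had 247 and 244 CPM in adult and 0.558 and 2.89 CPM in fetal libraries. It was 142-fold lower, with a log2 fold change of -7.19 ± 0.17 (SE, n = 2 per group; edgeR adjusted p = 1.68e-12). Cyp3a25 had 71.2 and 74.3 CPM in adult, 0 counts in fetal replicate 1 and 0.228 CPM, or 3 counts, in fetal replicate 2. The ratio of its summed counts was 666, with an exact 95% interval from 228 to 3234 that covers counting error only. Cyp3a59, 95.0% identical to Cyp3a25, had 3.73 and 2.34 CPM in adult and no counts in fetal libraries, at least 13.9-fold lower.

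Cyp3a13, another intestinal member, had a much smaller change. It stood at 60.5 and 54.1 CPM in adult and 33.7 and 32.8 CPM in fetal libraries. The groups did not overlap, but the log2 fold change was only -0.79 ± 0.07 (SE, n = 2 per group; edgeR adjusted p = 7.69e-07), 1.72-fold lower. The other members of Cyp3a, summed, had 322 and 321 CPM in adult and 0.558 and 3.12 CPM in fetal libraries, 175-fold lower. In adult organoids Cyp3a13 was thus a minor part of family 3, at 25.4 and 22.6 TPM beside 131 and 129 TPM for Cyp3a11. In fetal organoids it was nearly the whole, at 18.7 and 17.7 TPM beside 0.39 and 1.97 TPM. Cyp3a13 also lies apart on the genome: the other 6 members form a run of neighbours from Cyp3a57 to Cyp3a59, of which 3 were tested, and Cyp3a13 is not in it.

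**Figure D3:**
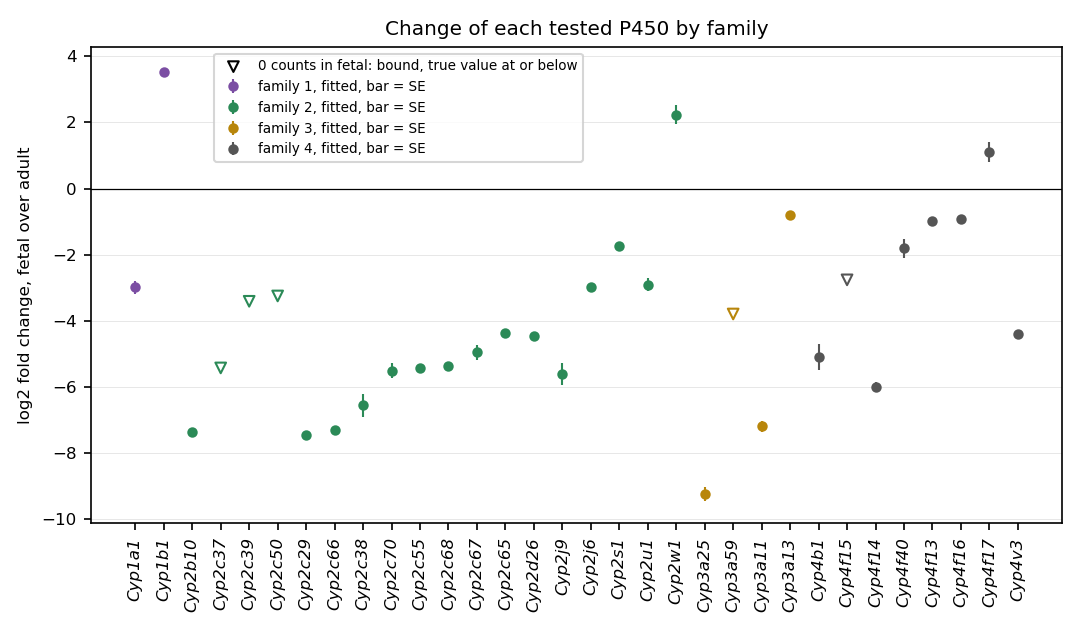
Log2 fold change of fetal over adult for the 32 tested P450s, coloured by family. Bars are 1 SE, the absolute change divided by the square root of F from the edgeR test on 2 libraries per group. They can lie below counting error. Triangles are bounds for the 5 genes with 0 counts in both fetal libraries. Cyp1b1, Cyp2w1 and Cyp4f17 lie above 0, and Cyp3a13, Cyp4f16 and Cyp4f13 are the nearest to 0 of those below it.

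Family 4 enzymes hydroxylate fatty acids and eicosanoids, mostly at the omega end of the chain, and within subfamily Cyp4f they changed in both directions. Of the 9 members of Cyp4f 6 were tested, with 5 lower and 1 higher, beside 32.7% and 33.9% of all genes. Of the 6, 2 reached the filter level in adult alone, Cyp4f14 and Cyp4f15, so their direction was set by the filter. The other 4 reached it in both groups, with 3 lower and 1 higher. Cyp4f14, a leukotriene B4 omega-hydroxylase, had 45.7 and 49.0 CPM in adult and 0.697 and 0.760 CPM in fetal libraries. It was 64.9-fold lower, at a log2 fold change of -6.00 ± 0.15 (SE, n = 2 per group; edgeR adjusted p = 3.28e-12). Cyp4f15 had 1.66 and 1.304 CPM in adult and no counts in fetal libraries, at least 6.78-fold lower. Cyp4f40 had 5.51 and 4.41 CPM in adult and 1.67 and 1.14 CPM in fetal libraries, 3.53-fold lower, a call that was lost with limma on log2(TPM + 1) without a filter (adjusted p = 0.0502).

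Cyp4f13 and Cyp4f16 had smaller changes. Cyp4f13 had 14.0 and 12.8 CPM in adult and 6.49 and 6.99 CPM in fetal libraries, 1.99-fold lower. Cyp4f16 had 34.0 and 29.6 CPM in adult and 17.0 and 16.4 CPM in fetal libraries, 1.91-fold lower. On the TPM scale Cyp4f16 ranked 13 in adult and 3 in fetal organoids, at 23.7 and 19.9 against 16.1 and 15.1 TPM. In that unfiltered limma fit both calls were lost (adjusted p = 0.0909 for Cyp4f13 and 0.0512 for Cyp4f16). These 2 genes are the larger part of the Cyp4f share of fetal P450 RNA given above.

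Cyp4f17 was called higher in fetal organoids, with 1.40 and 2.21 CPM in adult and 4.13 and 3.59 CPM in fetal libraries. Its log2 fold change was 1.11 ± 0.30 (SE, n = 2 per group; edgeR adjusted p = 0.00600). Without adult replicate 1 the log2 fold change was 0.80 and the call was lost (edgeR adjusted p = 0.0835). Its counts also carried fractions in all 4 libraries, and in 3 of them the sum with Cyp4f16 was whole, at 405 counts in adult replicate 1 and 303 and 263 in the fetal libraries. The 2 genes together were lower in fetal organoids, at 35.4 and 31.8 CPM in adult and 21.1 and 19.98 CPM in fetal libraries, with Cyp4f16 the larger part in every library. Whether the rise of Cyp4f17 depends on how reads were divided was not tested.

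Beyond Cyp4f, Cyp4v3, the mouse counterpart of the retinal dystrophy gene CYP4V2, had 47.5 and 46.5 CPM in adult and 2.09 and 2.36 CPM in fetal libraries, 21.1-fold lower. Cyp4b1, an enzyme of lung that activates plant toxins, had 6.12 and 7.02 CPM in adult and 0.209 and 0.152 CPM in fetal libraries, from 3 and 2 fetal counts. None of the 5 members of Cyp4a, the PPARA targets, had enough counts to test, and their summed level was at most 0.200 CPM in any library. Also not tested, for too few counts, were Cyp2a, the classical liver enzyme Cyp2e1, Cyp2f2, Cyp2g1, Cyp2r1, Cyp2t4, Cyp2ab1 and Cyp4x1.

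For some of the strongly reduced genes the fetal libraries differed from each other. For others they were close, such as Cyp4f14 (0.697 and 0.760 CPM) and Cyp2c70 (0.488 and 0.456 CPM). In CPM, fetal replicate 2 was above fetal replicate 1 for Cyp3a11 (2.89 against 0.558), Cyp2c66 (2.72 against 0.944), Cyp2c29 (2.05 against 0.907) and Cyp2j9 (0.608 against 0.0697). The summed enterocyte markers did not differ in this way, at 455 CPM in fetal replicate 1 and 460 CPM in fetal replicate 2. Vil1 held 350 and 356 CPM of these sums, so they say little of the other markers. Sis, the marker of highest CPM in adult, was higher in replicate 2 (10.3 against 6.14 CPM). Fabp2, picked after its values were seen, was lower in replicate 2 (5.02 against 6.42 CPM). Cyp2c38 went the other way, with all of its fetal counts in replicate 1. Leaving out fetal replicate 2 moved the log2 fold change to -8.76 for Cyp3a11, -8.20 for Cyp2c66, -8.14 for Cyp2c29 and -7.70 for Cyp2j9. Leaving out fetal replicate 1 moved them to -6.40, -6.70, -6.96 and -4.74. For Cyp3a25 the value was -8.25 without fetal replicate 1. Without fetal replicate 2 its fitted value of -12.76 rests on 0 fetal counts and gives no size of change. For Cyp2c38 the values were -5.66 without fetal replicate 2 and -10.95 without fetal replicate 1, the latter again resting on 0 fetal counts. Every one of these genes stayed called as lower in each of these fits.

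With genes that have a relative over 80% identical set aside, 16 tested members remained, of which 14 were lower and 2, Cyp1b1 and Cyp2w1, were higher. This choice was made after seeing the data. By it 41 of the 76 members, and 16 of the 32 tested, count as uncertain for values of a single gene.

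Receptors and factors that act on P450 genes were examined as a list of 22 genes chosen with earlier results of these data known. Of 21 tested, 14 were lower in fetal organoids, 4 were higher and 3 were not called, beside 32.7% lower and 33.9% higher over all genes. Their median log2 fold change was -0.54 beside 0.01 for all genes tested. The vitamin D receptor Vdr, which in the gut induces Cyp3a and Cyp24a1, changed most, from 382 and 384 CPM in adult to 3.98 and 4.86 CPM in fetal libraries, 86.7-fold lower. Ppara, the fatty acid receptor, went from 10.4 and 9.22 CPM to 0.349 and 0.608 CPM. Nr1i3, which encodes CAR, went from 13.3 and 12.7 CPM to 1.13 and 0.941 CPM, 12.5-fold lower.

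Epithelial factors of the list fell by smaller factors. Hnf4g went from 57.8 and 56.0 CPM in adult to 7.81 and 8.21 CPM in fetal libraries and Onecut2 from 210 and 211 CPM to 29.8 and 31.2 CPM. Cebpa was 3.89-fold lower. Hnf4a, the most abundant of the list, went from 754 and 787 CPM to 253 and 263 CPM, 2.99-fold lower. Chosen after their values were seen, Nr1i2, which encodes PXR, went from 41.1 and 37.5 CPM to 9.55 and 10.9 CPM, 3.83-fold lower.

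The AHR genes, also chosen after their values were seen, changed little beside Cyp1a1 and Cyp1b1. Ahr had 31.8 and 34.6 CPM in adult and 39.9 and 38.1 CPM in fetal libraries, a log2 fold change of 0.24 ± 0.07 (SE; edgeR adjusted p = 0.00957). Its call was lost without adult replicate 1 (edgeR adjusted p = 0.108) and in DESeq2 (adjusted p = 0.0685). Arnt, its partner, had a log2 fold change of -0.24 that turned to 0.01 with library totals and to 0.21 on log2(TPM + 1), so no direction can be given. Ahrr, the AHR repressor, rose by 1.05 ± 0.39 on the log2 scale (SE; edgeR adjusted p = 0.0328) at 0.962 and 0.702 CPM in adult and 1.67 and 1.82 CPM in fetal libraries, and lost its call in each fit that left out a library (edgeR adjusted p between 0.0889 and 0.218).

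**Figure D4:**
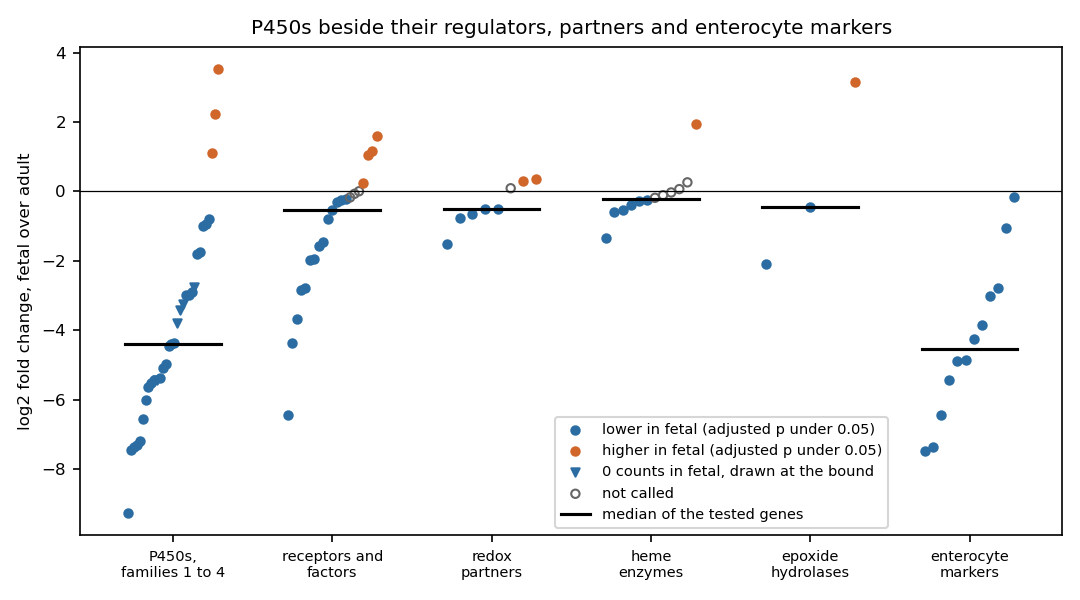
Log2 fold change of fetal over adult for each tested gene of the P450s, of the receptors and factors, redox partners, heme enzymes and epoxide hydrolases, and of the enterocyte markers, with the median of each as a line. P450 genes at 0 counts in both fetal libraries are drawn at their bound; medians are -4.38 for the P450s, -0.54, -0.50, -0.21 and -0.45 for the next 4 lists and -4.55 for enterocyte markers.

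The partners that P450s need for catalysis had smaller changes. Of 8 tested redox partners and membrane adaptors, 5 were lower, 2 were higher and 1 was not called, with a median log2 fold change of -0.50. Over all genes tested, 32.7% were lower and 33.9% higher. Por, the oxidoreductase that feeds electrons to all of these P450s, had 119 and 114 CPM in adult and 82.9 and 82.1 CPM in fetal libraries, 1.41-fold lower. Cyb5a, cytochrome b5, had 292 and 300 CPM in adult and 101 and 108 CPM in fetal libraries, 2.84-fold lower. Cyb5b (log2 fold change -0.50) and the heme-binding adaptors Pgrmc1 (-0.76) and Pgrmc2 (-0.64) were also called lower, and the reductase Cyb5r1 (0.35) higher. With limma on log2(TPM + 1) the calls of Por, Cyb5b and Pgrmc2 were lost (adjusted p = 0.415, 0.239 and 0.0820), on a scale where the median of all genes lay at 0.35.

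Heme supply showed small changes too. Of 12 tested genes of heme synthesis and breakdown, 6 were lower, 1 was higher and 5 were not called, with a median log2 fold change of -0.21. Alas1, the rate-limiting enzyme of heme synthesis outside erythroid cells, had 66.5 and 73.4 CPM in adult and 49.4 and 47.0 CPM in fetal libraries, 1.45-fold lower. Hmox1, the stress-inducible heme oxygenase that degrades heme, rose from 5.34 and 4.51 CPM to 18.6 and 19.7 CPM, 3.89-fold. Blvrb, which reduces biliverdin, was 2.50-fold lower. For Cpox and Urod, later steps of synthesis, the direction turned on the TPM scale. The call of Uros was lost with library totals (edgeR adjusted p = 0.0518) and on log2(TPM + 1) (limma adjusted p = 0.953), and those of Alas1 and Blvrb on log2(TPM + 1) without a filter (limma adjusted p = 0.0679 and 0.0597).

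Epoxide hydrolases act on the epoxides that Cyp1, Cyp2c and Cyp2j enzymes form. Ephx2, the soluble enzyme that hydrolyses fatty acid epoxides, had 33.6 and 31.9 CPM in adult and 8.37 and 6.84 CPM in fetal libraries, 4.30-fold lower. Ephx1, the microsomal enzyme, was 1.37-fold lower, a call that was lost with limma on log2(TPM + 1) (adjusted p = 0.308). Ephx4 was called higher from 1 count in each adult library against 15 and 10 in fetal ones, a ratio of 9.73 with an exact 95% interval from 2.43 to 84.8.

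P450s of other families, which mostly act on sterols, bile acids, steroids and vitamins, were largely outside the measurable range. Of 18 found, 9 had 0 counts in every library and 3 were tested. Cyp27a1, the mitochondrial sterol 27-hydroxylase, rose from 2.27 and 2.51 CPM in adult to 7.88 and 8.13 CPM in fetal libraries, 3.35-fold. Cyp20a1, an orphan P450, had a log2 fold change of 0.30, and Cyp39a1, an oxysterol hydroxylase, of -0.90. The call of Cyp20a1 was lost without fetal replicate 2 (edgeR adjusted p = 0.0522) and that of Cyp39a1 on log2(TPM + 1) (limma adjusted p = 0.0718). Cyp51, the lanosterol demethylase of cholesterol synthesis, which was outside the list's naming rule and chosen after its values were seen, had 291 and 289 CPM in adult and 305 and 300 CPM in fetal libraries and was not called (edgeR adjusted p = 0.106).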

How the data were processed

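Expected counts and TPM per Ensembl gene were deposited by the authors. The submitters' processing notes list STAR 2.7.3a, RSEM 1.3.3, Trim Galore and FastQC, and both GRCm39 and mm10. Libraries were made with a directional kit, per the labels; how counting used strand is not stated there. Symbols were found for 52083 of 55416 identifiers; the 3333 unnamed ones took 0.471% to 1.11% of counts.

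Expected counts were rounded and tested over 14271 genes with edgeR 4.0.16 (R 4.3.3; filterByExpr, TMM, quasi-likelihood, Benjamini-Hochberg), without a replicate block. Replicates differed beyond sampling noise (chi-square per degree of freedom 3.30 in adult, 2.81 in fetal). Summed counts served for relatives; protein identity came from the longest reading frames of GENCODE transcripts. Members with a mean of at least 1 CPM in a group were named, and from other lists the 6 called genes of largest change and the one of highest mean CPM. Members and lists were chosen with earlier results of these data known. The test was checked on simulated data. There were 14 alternatives planned (DESeq2 1.42.0 and limma 3.58.1 among them) and 1 added.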

Additional observations from a re-analysis of the deposited data

How the results depend on the processing

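Of the 32 tested members, 29 were lower and 3 higher; over 14 other settings the counts ranged from 28 to 32 lower and from 2 to 4 higher. With relatives over 80% identical left out, an alternative added after seeing the data, 14 were lower and 2 higher. The median log2 fold change was -5.23; it was -4.99 with library totals, -3.80 without a filter (54 members tested), -2.41 on log2(TPM + 1), -3.97 on log2(TPM + 0.1) and -0.53 on log2(TPM + 1) without a filter; leaving out a library in turn gave -5.21 to -5.15. The replicate block left 29 lower and 3 higher with a median of -5.23. Deviations of same-numbered libraries correlated at -0.014, which with 2 libraries per group cannot settle whether they were paired. Without adult replicate 1, Cyp4f15 was not tested and Cyp4f17 lost its call (log2 fold change 0.80, edgeR adjusted p = 0.0835). On log2(TPM + 1) without a filter Cyp4f13, Cyp4f16 and Cyp4f40 lost theirs (limma adjusted p = 0.0909, 0.0512 and 0.0502). No member changed direction. Among other named genes, log2 fold changes reversed for Arnt and Vil1 (0.00786 and 0.0937 with library totals; 0.208, 0.216 and 0.208 for Arnt and 0.222, 0.223 and 0.222 for Vil1 on log2(TPM + 1), log2(TPM + 0.1) and log2(TPM + 1) without a filter), and in those TPM settings for Cpox (0.0508, 0.0516 and 0.0508) and Urod (0.379, 0.387 and 0.379); the cause was not tested. The median of all genes shifted from 0.01 to 0.25 with library totals and to 0.35, 0.42 and 0.13 in the TPM settings. Depth limits the 44 members that were not tested; without a filter 3 of them were called lower, Cyp2c54, Cyp2c69 and Cyp2j5 (edgeR adjusted p = 0.000586, 0.0263 and 0.00785).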
